A study of Homo sapiens with 9 samples.

Results

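Transcribed pseudogenes were followed in K562 cells after knockdown of UPF1 or DHX34. A gene was included when the annotation gave its type as transcribed unprocessed, transcribed processed or transcribed unitary pseudogene and its summed level averaged at least 1 TPM (the abundance unit of the quantification, scaled for transcript length and library size) over the 9 libraries. This left 141 genes of the 58214 annotated genes with a transcript in the tables, and of the 1549 genes of these 3 types in them. Of the 141 pseudogenes, 57 were unprocessed, 59 processed and 25 unitary. K562 is a human erythroleukaemia cell line. The 3 groups were cells transfected with a non-targeting siRNA pool (SCR), with a siRNA pool against DHX34 or with siRNAs against UPF1, and each had 3 libraries of poly(A) RNA. All groups were transfected on plating and a second time before harvest on day 4 of depletion. A knockdown leaves part of the target RNA, as the levels of both targets show further on, and what protein remained was not measured here.

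The members were selected on their mean TPM over all libraries, so that mean is a description and not a result. ENSG00000259562 and ENSG00000232450 lay just inside the limit at means of 1.02 and 1.03 TPM, and OR6D1P and CSPG4P11 lay just outside at 0.995 and 0.991 TPM. Since all 3 groups entered the mean, a pseudogene could be included because it was high after knockdown. The mean in SCR alone was under 1 TPM for 11 members, and the main counts, and those by type, exon number and place of the stop, were therefore also made with the limit applied to SCR only.

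Pseudogenes are copies or relics of genes that lost the ability to make the full protein. Unprocessed pseudogenes arose by duplication of a genomic segment and often kept the exons and introns of the parent gene. Processed pseudogenes arose by reverse transcription of an mRNA, and unitary pseudogenes are genes that were inactivated without a functional copy elsewhere in the genome. Nonsense-mediated decay (NMD) degrades RNAs on which translation ends early, typically when an exon junction lies well downstream from the stop codon. UPF1 is the RNA helicase at the core of this pathway, and DHX34 is an RNA helicase that promotes the NMD-specific changes around UPF1. A transcribed and spliced pseudogene with a disrupted reading frame is a textbook candidate for NMD.

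The following 30-base windows show how such pseudogenes depart from their parent genes. The first stop codon met in the frame of the parent protein is in capitals, and so is the codon at the aligned place of the parent. Such a window could be written for 13 pairs, and the 6 shown were picked, after their values were seen, to cover different parent genes among the pseudogenes described further on. All windows are of the GENCODE transcripts on GRCh38 and not of the K562 genome.
SBDSP1: tgtaaatgtttccTAAggtcaggttgccaa
SBDS: tgtaaatgtttctAAAggtcaggttgccaa
SMG1P2: agacgacagagacTGAagattggtcactgt
SMG1: agacgacagagacCGAagattggctactgt
WASH2P: gccagacctgcggTGAgaggaggccgtcca
WASHC1: gccagacctgcggCGAgaggaggccgtcca
STAG3L4: taactttttcatcTGAtcttgtggatgtaa
STAG3: taactttttcatcCAAtcttgcggatgtaa
GTF2IP4: gtaccctcttttcTAGtctcatgttgaaga
GTF2I: gtaccctcttttcCAGtctcatgttgaaga
SUZ12P1: ctatagatttcttTGAactcggaatctcat
SUZ12: ctatagatttcttCGAactcggaatctcat

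The SBDSP1 window lies at chr7:72830734-72830763 on the plus strand, and its stop falls 24.3% of the way into the SBDS coding sequence. SMG1P2 has its window at chr16:29561558-29561587 on the minus strand and the stop at 4.5% of the SMG1 coding sequence. For WASH2P the window is chr2:113588617-113588646, plus strand, and the stop falls at 5.4% of the WASHC1 coding sequence. In STAG3L4 it is chr7:67306052-67306081, plus strand, at 11.2% of STAG3. In GTF2IP4 it is chr7:73179124-73179153, plus strand, at 39% of GTF2I, and in SUZ12P1 it is chr17:30734910-30734939, plus strand, at 13.5% of SUZ12. Each of these 6 transcripts has at least 2 exon junctions more than 50 bases past the stop, up to 25 in SMG1P2. Whether any of the transcripts was translated was not measured.

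A parent gene could be supported for 85 members, by the pseudogene's symbol or by at least 10% of its 31-base words (31-mers) occurring in 1 protein-coding gene that does not overlap it on the same strand. Of these 85 pairs, 58 had a stop in the parent's frame before the end of the parent's coding sequence, and 43 of the 58 had it before the midpoint of that sequence. The frame was shifted before the stop in 43 of the 58. Another 6 members kept the parent's stop, and 7 had no stop in that frame up to the end of the transcript. In 5 the stop lay in a gap of the alignment, in 3 it lay past the aligned part, and 6 aligned over fewer than 90 bases.

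Shared sequence limited what could be measured. A read that fits several genes is divided among them by the quantification, so a change in the parent or in another copy can appear in the pseudogene. Of the 141 members, 68 had at least 50% of their 31-mers in no other gene, 47 had under 10% and 21 had under 1%. The median share of own 31-mers was 3.56% in unprocessed, 63.0% in processed and 92.0% in unitary pseudogenes. For 41 members, 39 of them unprocessed, part of this came from a long noncoding RNA gene that the newer annotation places on the same exons. Counts were therefore also given for the 68 members with mostly own sequence and for the summed locus.

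The siRNA targets fell in their own groups. UPF1 had 49.2 ± 2.59 TPM in SCR, 53.9 ± 1.09 after DHX34 knockdown and 23.1 ± 0.168 after UPF1 knockdown (SD, n = 3), and its log2 fold change against SCR was -1.31. DHX34 had 18.7 ± 0.671, 9.98 ± 0.925 and 22.4 ± 0.519 TPM in the same order, and its log2 fold change after DHX34 knockdown was -1.23. Library totals ranged from 73478797 to 103625443 expected counts. The 11 erythroid markers of K562 ranged from 12 TPM (EPOR) upwards in all libraries, with sums of 24100 to 25690 TPM in SCR, 21750 to 23930 after DHX34 knockdown and 14690 to 15890 after UPF1 knockdown. All 5 T cell, 3 of 4 B cell, 3 of 4 monocyte and 2 of 4 epithelial markers were under 1 TPM in all libraries. MS4A1 and KRT5 were listed at 0 in every library, while LYZ, EPCAM and KRT18 were present. Of 16 NMD genes, 9 were higher and 2 lower after UPF1 knockdown, UPF1 being 1 of the 2, and none was higher and 3 were lower after DHX34 knockdown, DHX34 being 1 of the 3.

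After UPF1 knockdown the transcribed pseudogenes rose far more often than they fell. Of 134 members tested against SCR, 50 were up-regulated and 7 down-regulated at an adjusted p of at most 0.005 (edgeR quasi-likelihood test, Benjamini-Hochberg over all genes), and 77 were not called. Over all 17184 genes tested, 12.4% were called higher and 12.9% lower. The median log2 fold change was 0.32 for the members and 0.02 for all genes. Of the 50 up-regulated pseudogenes, 20 rose at least 2-fold and 36 were called with every single library left out in turn. On the log2(TPM + 0.5) scale the median of all genes was itself shifted by 0.17, and the median of the members was 0.51. With the limit of 1 TPM applied to SCR alone, 45 rose and 7 fell. Groups of 3 libraries that do not overlap were common. In TMM-scaled counts this held for 51.0% of all genes tested and for 82 of the 134 members after UPF1 knockdown.

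After DHX34 knockdown few pseudogenes changed. Of 135 members tested against SCR, 1 was up-regulated and 5 were down-regulated, beside 5.54% of all 17004 genes called higher and 4.86% called lower. The median log2 fold change of the members was 0.01 and that of all genes 0.02. On the log2(TPM + 0.5) scale all genes had a median of 0.13 and the members 0.18, and limma on that scale called 2 members higher and 0 lower. Without the filter on low counts edgeR called 15 higher and 6 lower. Over all genes limma called 879, of which 786 were higher. The fit without the filter called 3396 of 29003 genes, of which 1779 were higher. The split of the member calls thus moved with the settings. The cause was not tested. The call count also moved with single libraries, with 0 members called without SCR replicate 1, 1 without SCR replicate 3 and 2 without DHX34 knockdown replicate 1. Calls over all genes fell in these fits too, from 1768 to 811, 781 and 909 in the same order. At an adjusted p of at most 0.05 in edgeR, 16 members were higher and 9 lower, and the share over all genes at that limit was not counted.

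The summed level of the members followed a few abundant genes. It was 3962 ± 42.4 TPM in SCR, 3952 ± 45.9 after DHX34 knockdown and 4105 ± 70.4 after UPF1 knockdown (SD, n = 3). Without the 2 most abundant members the sum was 1157, 1251 and 1134 TPM in SCR, 1302, 1297 and 1473 TPM after DHX34 knockdown and 1704, 1708 and 1690 TPM after UPF1 knockdown. These 3 groups did not overlap. They are sums of TPM, and on the log2(TPM + 0.5) scale the median of all genes was itself shifted by 0.13 after DHX34 and 0.17 after UPF1 knockdown. On counts the median log2 fold change of the members after DHX34 knockdown was 0.01.

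Compared directly, pseudogene levels were higher after UPF1 than after DHX34 knockdown for 45 of 138 members and lower for 4. Over all 17435 genes in this comparison 9.89% were called higher and 7.47% lower. The median log2 difference was 0.35 for the members. This count was 32 in all without UPF1 knockdown replicate 1, where calls over all genes fell as well, from 3026 to 1959. The comparisons share libraries, so the counts are not independent of each other.

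The 3 types differed in how often they were called. Among the unprocessed pseudogenes 28 of 54 rose and 1 fell after UPF1 knockdown, and the median of the log2 fold changes was 0.71. Among the unitary pseudogenes 9 of 25 rose and 1 fell, with a median of 0.21, and among the processed pseudogenes 13 of 55 rose and 5 fell, with a median of 0.08. At the same TPM limit 1705 of 10584 protein-coding genes rose and 2128 fell, and 28 of 182 pseudogenes of other types rose and 5 fell. Of 191 long noncoding RNA genes that the annotation tags as overlapping a pseudogene, 96 rose and 2 fell, at a median of 0.53. With the limit on SCR, 24 of 48 unprocessed, 12 of 52 processed and 9 of 25 unitary pseudogenes rose. After DHX34 knockdown none of 54 unprocessed pseudogenes rose and 2 fell, none of 25 unitary ones was called, and 1 of 56 processed ones rose and 3 fell. The difference between the types was not tested.

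**Figure D1:**
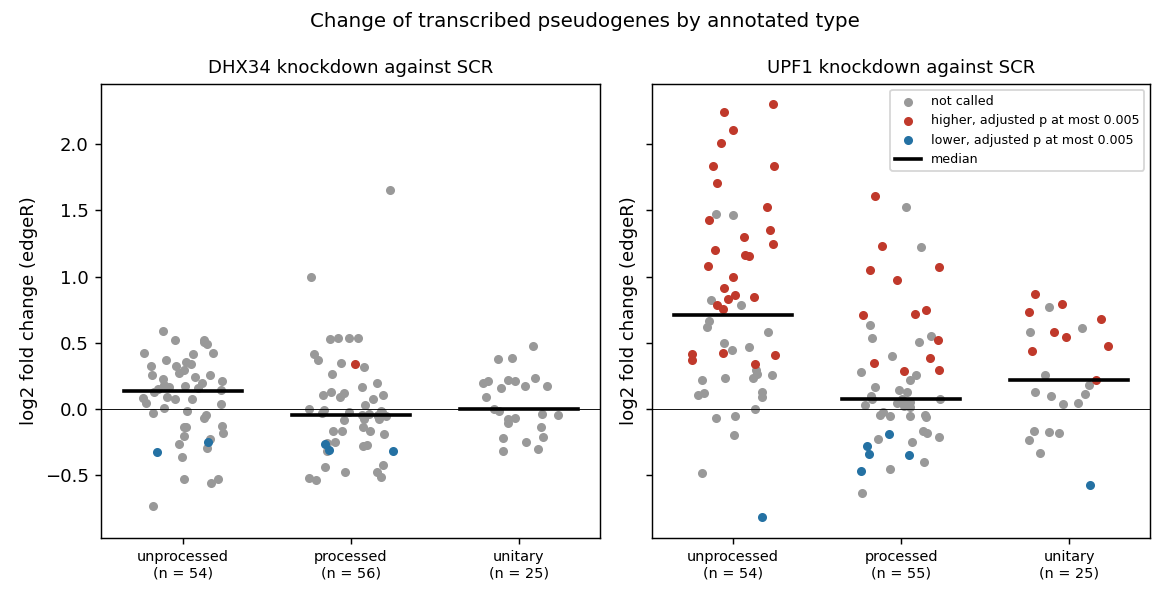
Log2 fold change (vertical axis, edgeR) of each tested pseudogene by annotated type (horizontal axis) after DHX34 knockdown (left) and UPF1 knockdown (right) against SCR. Each point is 1 pseudogene, red points were called higher and blue points lower, and black lines are medians, which after UPF1 knockdown were 0.71, 0.08 and 0.21 from left to right.

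The number of exons in the main transcript went with the size of the rise after UPF1 knockdown. Of 21 pseudogenes whose main transcript had 10 or more exons 17 rose and none fell, and their median log2 fold change was 1.16. With 5 to 9 exons 13 of 28 rose and none fell, at a median of 0.47. With 2 to 4 exons 15 of 58 rose and 5 fell, at a median of 0.22, and with 1 exon 5 of 27 rose and 2 fell, at a median of 0.05. Exon number went with shared sequence as well. Among members with mostly own sequence 6 of 11 rose with 5 or more exons, 11 of 37 with 2 to 4 and 4 of 18 with 1 exon, at medians of 0.54, 0.14 and 0.06. With the limit on SCR 14 of 17 members rose with 10 or more exons, 13 of 27 with 5 to 9, 14 of 57 with 2 to 4 and 4 of 24 with 1. Members such as CCT6P1 and HERC2P9 passed the limit over all libraries through the UPF1 knockdown, so the first counts favour rises. The part of shared reads in this order was not tested.

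**Figure D2:**
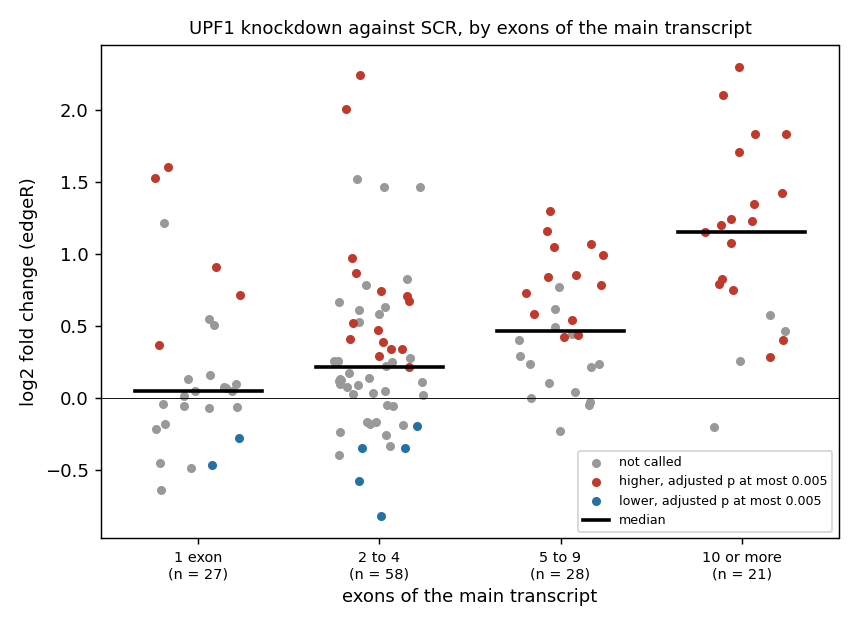
Log2 fold change after UPF1 knockdown against SCR (vertical axis, edgeR) by the number of exons of the most abundant transcript (horizontal axis). Each point is 1 pseudogene, red points were called higher and blue points lower, and the black medians are 0.05, 0.22, 0.47 and 1.16 from left to right.

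The place of the stop codon gave a similar picture. Of 36 members with an early stop and at least 1 exon junction more than 50 bases past it, 24 rose and 1 fell after UPF1 knockdown, and their median was 0.84 on the log2 scale. Of 21 tested members with an early stop and no such junction, 5 rose and 1 fell, with a median of 0.07. Of the 6 members that kept the parent's stop, none rose and 2 fell. Those 2 were the RPS26 and RPL9 copies described further on, at 100% and 99.83% identity, whose reads cannot be told apart from those of the parents. With the limit on SCR these counts were 20 of 31 with a junction past the stop, 5 of 21 without one and again none of 6. After DHX34 knockdown 1 of the 36 members with an early stop and a junction past it rose and none fell, with a median of 0.15. Exon number and the stop measure overlap, because a transcript of 1 exon has no junction. The counts by stop were not split by own sequence, and the part of shared reads in them was not tested.

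Pseudogenes of SMG1, the kinase that phosphorylates UPF1 during NMD, were among those with the largest rise. SMG1P1 (ENSG00000237296, chr16:22437401-22491826) had 0.833, 1.39 and 1.11 TPM in SCR, 1.27, 1.92 and 1.76 TPM after DHX34 knockdown and 6.30, 5.88 and 6.70 TPM after UPF1 knockdown. The UPF1 knockdown libraries all lay above the other 6, while SCR and DHX34 knockdown overlapped. Its log2 fold change after UPF1 knockdown was 2.3 ± 0.13 (SE, adjusted p = 9.7e-08, edgeR). SMG1P2 (ENSG00000205534, chr16:29527568-29594966), whose window is shown above, had means of 1.71 ± 0.187, 2.14 ± 0.315 and 5.04 ± 0.385 TPM (SD, n = 3) and a log2 fold change of 1.35 after UPF1 knockdown. SMG1 itself went from 15.5 ± 1.39 TPM in SCR to 26.2 ± 0.685 TPM after UPF1 knockdown, a log2 fold change of 0.62. SMG1P1 had no 31-mer of its own and SMG1P2 had 2.29%, so the copies of this family cannot be told apart with certainty.

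SDHAP1 (ENSG00000185485, chr3:195963335-195990258) derives from SDHA, a subunit of succinate dehydrogenase. It had 4.15, 3.01 and 2.96 TPM in SCR, 3.32, 2.89 and 4.96 TPM after DHX34 knockdown and 12.7, 12.7 and 12.9 TPM after UPF1 knockdown. All UPF1 knockdown libraries were above the rest, and the DHX34 libraries overlapped SCR. The log2 fold change was 1.71 ± 0.11 (SE, adjusted p = 3.5e-07, edgeR), while SDHA changed by -0.02 on the same scale and was not called. The long noncoding RNA gene on the same exons rose by a log2 fold change of 1.68, and the summed locus by 1.69. SDHAP1 aligned to the SDHA coding sequence at 95.58% identity, and the part of shared reads in its change was not tested.

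SBDSP1 (ENSG00000225648, chr7:72829656-72836701) is the duplicate of SBDS, a factor in maturation of the large ribosomal subunit. Its level was 22.5, 21.7 and 25.7 TPM in SCR, 24.1, 22.1 and 22.8 TPM after DHX34 knockdown and 53.7, 53.6 and 53.3 TPM after UPF1 knockdown. The last 3 libraries stood clear of the other 6. Its log2 fold change was 1.00 after UPF1 knockdown (adjusted p = 4.8e-07, edgeR) and -0.18 after DHX34 knockdown (adjusted p = 0.16), and the summed locus changed by -0.26 after DHX34 knockdown (adjusted p = 0.0018). SBDS had a log2 fold change of -0.09 after UPF1 knockdown and was not called. SBDSP1 aligned to the SBDS coding sequence at 97.69% identity, and the part of shared reads was not tested.

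PDE4DIPP2 (chr1:120489860-120701289, main transcript of 42 exons) was the first of 4 members with long transcripts described here. It is a copy of the centrosome and Golgi scaffold gene PDE4DIP and went from 1.29 ± 0.218 TPM in SCR to 5.31 ± 0.195 TPM after UPF1 knockdown (SD, n = 3), or 1.83 on the log2 scale by edgeR. HERC2P9 and HERC2P5, copies of the ubiquitin ligase gene HERC2, had log2 fold changes of 1.84 and 1.43, beside 0.32 for HERC2. PKD1P6, a copy of the polycystin gene PKD1, had 1.20 beside 0.53 for PKD1. All 4 pseudogenes were called after UPF1 knockdown with each library left out in turn, and none was called after DHX34 knockdown. PDE4DIPP2 shared 83.3% of its 31-mers with PDE4DIP, which rose by 0.35, and HERC2P9 shared 62.8% with HERC2.

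CCT6P1, a copy of the chaperonin subunit gene CCT6A, had 0.588, 0.630 and 0.814 TPM in SCR and 3.52, 3.26 and 3.41 TPM after UPF1 knockdown. Its log2 fold change was 2.11 while CCT6A fell by 0.21 on the log2 scale. RRP7BP, from the ribosomal RNA processing gene RRP7A, had a log2 fold change of 1.30 beside 0.02 for RRP7A, which was not called. CCT6P1 and RRP7BP aligned to the coding sequences of CCT6A and RRP7A at 94.86% and 97.23% identity. The part of shared reads in these 2 changes was not tested. SMPD4BP, from the sphingomyelinase gene SMPD4, went from 5.34, 5.57 and 4.30 TPM in SCR to 14.4, 13.3 and 13.1 TPM after UPF1 knockdown. SCR and UPF1 knockdown did not overlap for SMPD4BP, its log2 fold change was 1.23, and 50.4% of its 31-mers were its own.

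SLC7A5P1 (chr16:29613103-29613640) is a copy of part of SLC7A5, the gene of a large neutral amino acid transporter. It had 5.66, 6.05 and 8.75 TPM in SCR, 7.63, 10.7 and 8.37 TPM after DHX34 knockdown and 19.8, 23.9 and 23.9 TPM after UPF1 knockdown. Its main transcript had 1 exon and no stop in the parent's frame, and its log2 fold change after UPF1 knockdown was 1.53. SLC7A5 rose by 0.31 after UPF1 knockdown and fell by 0.37 on the log2 scale after DHX34 knockdown. SLC7A5P2, with no 31-mer of its own, was listed at 0 in all UPF1 knockdown libraries and in SCR replicate 1, and at 0.988 to 2.69 TPM in the others. It was called lower in UPF1 than in DHX34 knockdown, although its summed locus was 1.23 higher on the log2 scale, so no fold is given for it.

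The other named rises had less support or depended on the locus. WASH2P, from the endosomal actin-regulating gene WASHC1, had a log2 fold change of 1.24, but the summed locus changed by 0.49, and WASHC1 rose by 1.04. STAG3L4, from the meiotic cohesin gene STAG3, had 1.15, 0.927 and 0.279 TPM in SCR and 4.36, 3.16 and 5.04 TPM after UPF1 knockdown. STAG3L4 averaged 0.786 TPM in SCR and 0.507 TPM after DHX34 knockdown, so it passed the TPM limit through the UPF1 knockdown. Its log2 fold change of 2.24 became 1.11 for the summed locus, and the adjusted p (edgeR) rose from 0.00089 to 0.0069 without UPF1 knockdown replicate 3. GUSBP18, from the lysosomal enzyme gene GUSB, had a log2 fold change of 2.01 and of 0.85 for the summed locus, and it was not called without SCR replicate 1, without SCR replicate 3 or without UPF1 knockdown replicate 3. ENSG00000232450, with no parent found, had a log2 fold change of 1.61 and was not called without any 1 of 4 libraries, SCR replicates 1 and 3 and UPF1 knockdown replicates 2 and 3. It lay just inside the TPM limit.

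**Figure D3:**
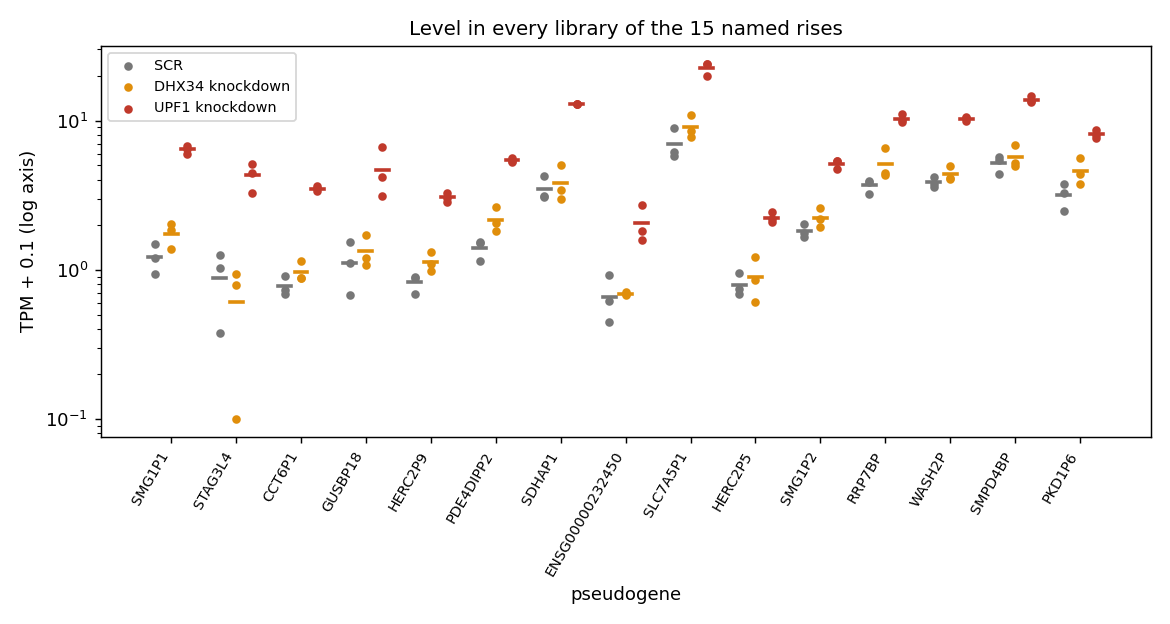
TPM plus 0.1 (vertical log axis) of the 15 pseudogenes with the largest called rise after UPF1 knockdown (horizontal axis), each library a point and each group mean a bar. The UPF1 knockdown points of SDHAP1 lie between 12.7 and 12.9 TPM, above all SCR points, which lie between 2.96 and 4.15 TPM.

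Pseudogenes with mostly own sequence rose too. Of 66 such members tested, 21 rose and 2 fell after UPF1 knockdown, at a median log2 fold change of 0.17, and none was called after DHX34 knockdown by edgeR. Of 68 tested members with less own sequence, 29 rose and 5 fell after UPF1 knockdown, at a median of 0.50. The following 3 were picked after their values were seen, for their own sequence. AFG3L1P (98.2% own 31-mers), the relic of a mitochondrial protease gene, had 10.4, 11 and 9.01 TPM in SCR, 10.6, 9.69 and 13 TPM after DHX34 knockdown and 22.5, 23.6 and 22.4 TPM after UPF1 knockdown. TCAM1P (85.2%), the relic of a testicular cell adhesion gene, went from 6.45, 5.12 and 4.78 TPM in SCR to 7.32, 7.35 and 10.2 TPM after DHX34 knockdown and 13, 12.2 and 11.1 TPM after UPF1 knockdown. The UPF1 knockdown libraries of both genes lay above all other libraries, with log2 fold changes of 0.73 and 0.87. TCAM1P was not called after DHX34 knockdown, although those 3 libraries also lay above SCR. In TMM-scaled counts DHX34 knockdown and SCR did not overlap for 41.3% of all genes tested and for 39 of 135 members. ZNF37BP (85.7%), a zinc finger copy, had log2 fold changes of 1.07 after UPF1 knockdown (adjusted p = 7.5e-07, edgeR) and 0.53 after DHX34 knockdown (adjusted p = 0.0062).

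Zinc finger genes, which form the largest family of human transcription factors, were also represented. Among all 134 members tested after UPF1 knockdown 50 rose, and 12.4% of all genes were called higher. Of the 8 members named after a zinc finger gene 6 rose after UPF1 knockdown, none fell, and none was called after DHX34 knockdown by edgeR. Their log2 fold changes were 1.07 for ZNF37BP, 0.91 for ZNF204P, 0.47 for ZNF271P, 0.41 for ZNF731P, 0.34 for ZNF788P and 0.29 for ZNF702P. The median of the 8 was 0.38 on the log2 scale after UPF1 knockdown and 0.26 after DHX34 knockdown, where 7 of the 8 were above 0. Of all 135 members tested after DHX34 knockdown 68 were above 0, at a median of 0.01. The rise of ZNF702P was called in 1 of the 6 fits with a library left out, that without SCR replicate 3.

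In several families more than 1 copy of a parent rose after UPF1 knockdown. In the NSUN5 and HERC2 families a copy was not called. NSUN5P2 had a log2 fold change of 0.58 and was not called beside 0.75 for NSUN5P1, and HERC2P3 had 0.47 and was not called beside 1.84 for HERC2P9. The rise of NSUN5P1 was called in 1 of the 6 fits with a library left out, that without SCR replicate 1. PKD1P3, PKD1P4 and PKD1P5 had log2 fold changes of 1.16, 1.08 and 0.83 beside 1.20 for PKD1P6. WHAMMP4 and WHAMMP1, copies of the actin-nucleation gene WHAMM, had 1.16 and 1.05 beside 0.82 for WHAMM, and GUSBP1 had 0.86. For GUSBP1 the summed locus changed by 0.03, and the rise was called in 1 of the 6 fits with a library left out, that without SCR replicate 2. SUZ12P1, from the Polycomb gene SUZ12, had 4.28, 3.67 and 3.00 TPM in SCR, 5.87, 3.53 and 6.02 TPM after DHX34 knockdown and 8, 7.37 and 6.39 TPM after UPF1 knockdown. Its UPF1 knockdown libraries were the highest, its log2 fold change was 0.78 (adjusted p = 0.0011, edgeR), and SUZ12 had -0.01. It was not called without SCR replicate 2, UPF1 knockdown replicate 1 or UPF1 knockdown replicate 2. Shared reads were present throughout these families, and their part in these changes was not tested.

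The smallest called rise after UPF1 knockdown was that of CUTALP, at 0.21 on the log2 scale and 97.7% own 31-mers, and it was not called without SCR replicate 2. TP73-AS1, annotated as a unitary pseudogene despite its symbol, rose by 0.44 and had 85.1% own 31-mers. AHSA2P, the relic of a gene for a co-chaperone of HSP90, rose by 0.54. WASH5P, with 84.3% own 31-mers, had 0.52 after UPF1 knockdown and 0.54 after DHX34 knockdown, of which only the first was called (adjusted p = 0.022 for the second, edgeR). ENSG00000228782, from the mitochondrial ribosomal protein gene MRPL45, was called higher only in UPF1 against DHX34 knockdown. It had 2.49, 0 and 3.49 TPM in SCR, 2.19, 3.33 and 2.13 TPM after DHX34 knockdown and 8.29, 6.15 and 5.20 TPM after UPF1 knockdown, so that its SCR libraries differed widely.

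None of the 7 falls after UPF1 knockdown reached 2-fold. HBBP1 (chr11:5242120-5243537), the beta-globin pseudogene of the globin locus, had 86.5, 85.2 and 90.5 TPM in SCR, 115, 111 and 119 TPM after DHX34 knockdown and 55.3, 57.3 and 57.1 TPM after UPF1 knockdown. No 2 groups overlapped. Its log2 fold change after UPF1 knockdown was -0.82 ± 0.06 (SE, adjusted p = 8.5e-07, edgeR), and after DHX34 knockdown it was 0.21 and not called (adjusted p = 0.019). Of the 11 erythroid markers 7 fell and 1 rose after UPF1 knockdown, among them the globin genes HBG1, HBG2 and HBE1 with log2 fold changes of -0.74, -0.96 and -1.11, and 3 fell after DHX34 knockdown. The part of the erythroid genes in the change of HBBP1 was not tested. HBBP1 shared no 31-mer with HBB.

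The most abundant members were retrocopies of ribosomal protein genes. ENSG00000196656 matched the RPS26 coding sequence at 100% identity and averaged 1707 TPM, and ENSG00000237550 matched RPL9 at 99.83% and averaged 886 TPM. The first had log2 fold changes of -0.27 after DHX34 knockdown and -0.47 after UPF1 knockdown, and RPS26 had -0.23 and -0.43. The second had -0.32 and -0.28, and RPL9 had -0.31 and -0.30. After DHX34 knockdown the first was not called without SCR replicate 1 or 3, and the second without SCR replicate 1 or 3 or DHX34 knockdown replicate 2. Member and parent moved by nearly the same amount in both pairs, and reads from the copy and the parent cannot be told apart there. PI4KAP2, related to the lipid kinase gene PI4KA, was next in abundance and rose by a log2 fold change of 0.68 after UPF1 knockdown.

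UBBP4, a copy of the ubiquitin gene UBB, was the member called in opposite directions. It had 68.4, 65.5 and 65.3 TPM in SCR, 62.1, 61.8 and 63.7 TPM after DHX34 knockdown and 95.6, 103 and 99.8 TPM after UPF1 knockdown. The 3 groups did not overlap. The log2 fold change was -0.25 after DHX34 knockdown (adjusted p = 0.0036, edgeR) and 0.37 after UPF1 knockdown (adjusted p = 5.2e-05, edgeR). The fall after DHX34 knockdown was not called when any single library was left out. UBB had log2 fold changes of -0.22 and -0.28.

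The other calls after DHX34 knockdown were small. GTF2IP4, a copy of the transcription factor gene GTF2I, was the only rise, from 11.7, 12.0 and 13.3 TPM in SCR to 18.8, 16.7 and 18.4 TPM, and it had 18.3, 18.5 and 17.8 TPM after UPF1 knockdown. Both knockdowns lay above SCR, with log2 fold changes of 0.34 (adjusted p = 0.0026, edgeR) and 0.28. The rise after DHX34 knockdown was not called without DHX34 knockdown replicate 1 or without any single SCR replicate. PMS2P1, from the mismatch repair gene PMS2, fell by 0.32 on the log2 scale after DHX34 knockdown and had -0.00 after UPF1 knockdown. It was not called without DHX34 knockdown replicate 1 or any single SCR replicate. DUXAP10, a homeobox gene copy, had -0.31 and -0.35, its TPM values overlapped between SCR and both knockdowns while its TMM-scaled counts did not, and was not called after DHX34 knockdown without SCR replicate 1, SCR replicate 2 or DHX34 knockdown replicate 1 or 2.

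The remaining falls after UPF1 knockdown were C3orf86P at a log2 fold change of -0.58, MSL3P1, a copy of the chromatin gene MSL3, at -0.35, and ENSG00000228463 at -0.19. Each lost its call when 1 of several libraries was left out, and for C3orf86P these were UPF1 knockdown replicates 1 and 3. For MSL3P1 they were SCR replicates 1 and 3 and UPF1 knockdown replicate 2. For ENSG00000228463 they were SCR replicates 1 and 3 and UPF1 knockdown replicates 1 and 2, and its mean TPM was not lower. The other 6 of the 7 falls were lower in mean TPM as well.

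The level of each pseudogene was also set against that of its parent. In the 85 supported pairs the log2 ratio of pseudogene to parent (TPM + 0.1) was higher after UPF1 knockdown than in SCR in 64, and the median change of the ratio was 0.46. Over all 124 pairs, weak matches included, the median change was 0.31. After DHX34 knockdown the median change over the 85 pairs was 0.06, and the ratio was higher in 51. A single pair of 3 against 3 libraries cannot go below p = 0.1 in the exact two-sided permutation test. SDHAP1, SBDSP1, SMG1P1, SMG1P2, SLC7A5P1 and UBBP4 all reached this value after UPF1 knockdown. Ratios that do not overlap between the groups give it, and this was common. It held after UPF1 knockdown for 43 of the 85 supported pairs with a higher ratio and 3 with a lower one. The counts after DHX34 knockdown were 15 and 10.

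Of 34 up-regulated members with a supported parent, the parent also rose for 15, fell for 3 and was not called for 16 after UPF1 knockdown. Of the 65 different parents tested, 10 rose and 18 fell, with a median log2 fold change of -0.03. Beside this, 12.4% of all genes tested were called higher and 12.9% lower. Among protein-coding genes at the TPM limit the shares were 16.11% and 20.11%. The ratio of SDHAP1 to SDHA went from -4.92 ± 0.290 to -3.23 ± 0.0251 on the log2 scale, and that of SBDSP1 to SBDS from -2.47 ± 0.136 to -1.39 ± 0.0209 (SD, n = 3). The parents stayed the more abundant RNA in both pairs. After DHX34 knockdown 2 parents rose and 13 fell of 64 tested. In that comparison 5.54% of all genes tested were called higher and 4.86% lower. Among protein-coding genes at the TPM limit 8.18% were called higher and 7.19% lower.

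**Figure D4:**
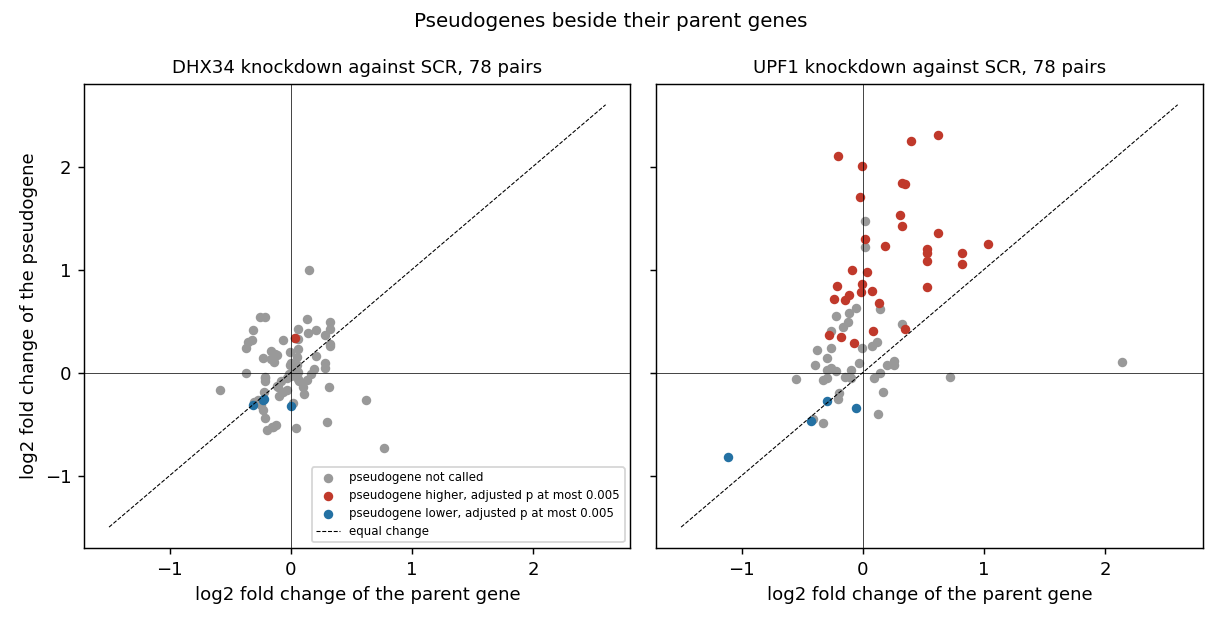
Log2 fold change of the pseudogene (vertical axis) against that of its parent gene (horizontal axis) after DHX34 knockdown (left) and UPF1 knockdown (right), for the 78 supported pairs with both genes tested. Red points were called higher and blue points lower for the pseudogene, and the dashed line marks equal change, above which SDHAP1 lies at 1.71 beside -0.02 for SDHA.

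By parent, members were counted on short lists of named parent genes that do not hold every gene of a role. The list of SMG1, NSUN5, BMS1, NOC2L and ribosomal protein genes, among others, had 13 members, of which 3 rose (SMG1P1, SMG1P2 and NSUN5P1) and 2 fell (the RPS26 and RPL9 copies) after UPF1 knockdown. RRP7BP and SBDSP1, which also rose, are not on it. The list of PMS2, HERC2, GTF2I, GTF2H2 and histone genes, among others, had 9 members, of which 3 rose (HERC2P9, HERC2P5 and GTF2IP4) and none fell, and it does not hold SUZ12P1, which rose, or MSL3P1, which fell. With the limit on SCR 1 of 6 members of this list rose. On the list with GUSB, LDHA and CYP genes 2 of 4 members rose (GUSBP1 and GUSBP18), and on the list with WASH, NPIP and STAG3 genes 2 of 3 (STAG3L4 and WASH2P). The WHAMM copies are not on the last list. STAG3L4 averaged 0.786 TPM in SCR and passed the limit over all libraries through the UPF1 knockdown, which favours a rise on that list. The medians of the 4 lists were 0.07, 0.28, 0.45 and 1.24, beside 0.02 for all genes. Beside these counts, 50 of all 134 members tested rose and 7 fell, and 12.4% of all genes were called higher and 12.9% lower. No member had a parent on the list of immune genes, and of the other 105 members tested 40 rose and 5 fell.

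Some members could not be followed. In all, 7 members were not tested between UPF1 knockdown and SCR because of low counts, and 10 had under 1 count in at least 1 library. PVRIG2P, all of whose 31-mers occur in PILRB, was listed at 0 in all SCR libraries, and ENSG00000223804 at 0 in all UPF1 knockdown libraries and in all but 1 library of each other group. With the locus summed, 59 members rose and 7 fell after UPF1 knockdown, and 48 of the 50 up-regulated members were among those called higher.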

How the data were processed

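Poly(A) RNA of 9 K562 samples was quantified by the authors with salmon 1.5.2 (GC bias correction) against Ensembl release 93 cDNA of GRCh38. The deposited tables hold expected counts and TPM values per transcript, and the authors divided reads that fit several transcripts among them. The deposited tables of the authors' own comparisons (sleuth p, q and b values, SUPPA2 splicing changes) were not used. Library strandedness is not given in the sources used here. Transcripts were joined by ID to GENCODE 44, which covered 98.1% of the counts of each library, and summed by gene.

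Expected counts were rounded and tested with edgeR 4.0.16 (TMM, filterByExpr with a minimum count of 10, quasi-likelihood, R 4.3.3), each comparison on its own 6 libraries, and called at an adjusted p of at most 0.005. The step was tested on simulated data. Alternatives used DESeq2 1.42.0 and limma 3.58.1. Replicates were described as biological replicates. Pairs were compared by exact permutation (SciPy 1.17.1).

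Parents were taken from the symbol, otherwise from the protein-coding gene sharing most 31-mers (at least 20). Named were, per comparison, the 15 largest rises and 10 largest falls among called members whose TMM-scaled counts did not overlap between the groups, members called in opposite directions, the 5 most abundant, the SMG1 copies and the members at the TPM limit. SUZ12P1, the zinc finger, WHAMM, PKD1, GUSB, NSUN5 and HERC2 copies beyond these, AFG3L1P, TCAM1P, CUTALP, TP73-AS1, AHSA2P, WASH5P, PVRIG2P and ENSG00000223804 were named after their values were seen. The members, lists and rules were chosen with earlier results of these data known.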

Additional observations from a re-analysis of the deposited data

How the results depend on the processing

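After UPF1 knockdown, rises outnumbered falls under every alternative run. The count of 57 called members became 37 with length-scaled counts and 23 among members with at least 50% own 31-mers, and 46 to 51 with 1 library left out. The median of 0.318 became 0.513 with limma on log2(TPM + 0.5), 0.387 at a limit of 2 TPM, 0.28 with the limit on SCR and 0.17 with mostly own 31-mers, and it was 0.318 to 0.401 with 1 library left out. After DHX34 knockdown the 6 calls became 11 with DESeq2, 21 without the filter on low counts, 10 with all 9 libraries in 1 fit, 25 at an adjusted p of at most 0.05, 2 with limma, 0 with length-scaled counts, 0 with mostly own 31-mers and 0 to 5 with 1 library left out, and the median of 0.00949 became 0.176 with limma and 0.0523 with mostly own 31-mers (-0.0141 to 0.0389 with 1 library left out). Between the knockdowns the 49 calls became 30 with length-scaled counts, 29 with limma, 16 with mostly own 31-mers and 32 to 50 with 1 library left out, and the median of 0.348 became 0.233 with mostly own 31-mers and 0.313 to 0.389 with 1 library left out. The cause of these moves was not tested. On the TPM scale 91.9% of all calls after UPF1 knockdown were higher, against 49.0% on counts, and 89.4% against 53.3% after DHX34 knockdown.

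The change of the pseudogene to parent ratio, 0.308 after UPF1 knockdown, became 0.164 with mostly own 31-mers and 0.457 in supported pairs, a setting added after seeing the data, and 0.25 to 0.356 with 1 library left out. After DHX34 knockdown 0.0634 became -0.00361 as a difference of edgeR values and -0.000182 to 0.0837 with 1 library left out. Between the knockdowns 0.248 became 0.316 as a difference of edgeR values, 0.158 with mostly own 31-mers, 0.384 in supported pairs and 0.201 to 0.289 with 1 library left out. The locus sums, the counts by type, exons and stop with the limit on SCR, and the counts without members at under 1 count in a library were also added after seeing the data.

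Replicate numbers did not pair the samples (correlations of same-numbered libraries of -0.0877 to 0.076). With a replicate block 3, 55 and 39 members were called in the order DHX34 knockdown, UPF1 knockdown and between the knockdowns.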
